A study of Homo sapiens with 12 samples.

Results

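The respiratory chain of mitochondria is built from 2 genomes, and its transcripts were followed here in MDA-MB-468 cells, a human breast cancer line of the basal-like type. Members were taken by symbol: nuclear genes starting with NDUFA, NDUFB, NDUFC, NDUFS, NDUFV, UQCR or ATP5, or with COX and a digit from 4 to 8, the genes SDHA to SDHD and CYC1, and the mitochondrial genes starting with MT-ND, MT-CO, MT-ATP or MT-CYB. Pseudogene symbols ending in P and digits and antisense symbols were left out, which removed 29 of 140 symbols; MT-ATP6 and MT-ATP8 end that way but are protein genes and were kept. This gave 111 genes of 56832 in the count tables, 98 nuclear and 13 mitochondrial. Beside the subunits, the prefixes also took 8 assembly genes of complex I and a few copies and readthrough genes.

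The cells carried either a vector for thyroid hormone receptor beta (pCDH-TRB, the TRB pool) or the empty vector (pCDH-EV, the EV pool), both stably. Each pool was kept for 24 hours in phenol-red free medium with charcoal-stripped serum and then for 24 hours with the thyroid hormone T3 at 10 nM or with its NaOH vehicle. RNA was sequenced in 3 libraries for each of the 4 groups. Each vector is represented by 1 pool, so a difference between TRB and EV is a difference between those pools, and no label states that replicate libraries are separate cultures, which leaves p-values resting on a spread that may be technical. Total counts in genes ran from 4241863 to 11955825, the lowest T3 total lying above the highest vehicle total. THRB itself stood at 37.7 to 44.2 CPM (counts scaled to a common library size) in the 6 EV libraries, 136 to 144 in TRB vehicle and 311 to 344 in TRB T3 libraries. Of 7 markers set for this line, EGFR stood at 4225 to 5664 CPM and KRT5 at 197 to 1161 CPM. KRT17 stood at 107.6 to 553.9 CPM, EPCAM at 300.8 to 379.2 and CDH1 at 162.3 to 237.5. KRT14 (10.54 to 73.25 CPM) and KRT6A (1.167 to 15.41 CPM) were lower. With T3 in TRB cells 5 of the 7 fell and 1 rose, against 21.9% and 22.4% of all genes tested. Of 12 markers of other cell types, PGR, COL1A2 and DCN had no count in any library, while COL1A1 (14.6 to 21.1 CPM), ESR1 (5.23 to 10.8) and PECAM1 (0.722 to 2.57) were counted in every library.

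Complex I takes electrons from NADH and complex II from succinate, both passing them to ubiquinone; complex III passes them on to cytochrome c and complex IV to oxygen, while complexes I, III and IV pump protons. Complex V, the ATP synthase, lets the protons back and makes ATP. The mitochondrial genome encodes core subunits of complexes I, III, IV and V and its own ribosomal and transfer RNAs, whereas complex II and most other subunits are nuclear. Thyroid hormone is a long known regulator of mitochondrial respiration.

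Promoters of the nuclear subunits are shown first, for 1 gene that rose and 2 that fell with T3 in TRB cells and 1 that passed no test there. They were chosen after their values were seen. Each has a run of 100 or more bases outside annotated exons within the 250 bases before its RefSeq start. That run holds a match to a motif of a factor known to act on respiratory genes or to a nuclear receptor half-site. Only the run is printed, and in each gene it stops short of the RefSeq start. The sequences are from RefSeq on GRCh38.p14, 5′ to 3′ on the gene's strand, with motif matches in capitals. NDUFA10 (chr2:240025403-240025592, minus strand) holds an SP1 match, NDUFA12 (chr12:95003771-95003947, minus strand) an NRF1 match, ATP5H (now ATP5PD, chr17:75046986-75047183, minus strand) an ETS match of the kind GABPA binds, and NDUFB4 (chr3:120596086-120596308, plus strand) 2 NRF1 matches and a half-site.
NDUFA10: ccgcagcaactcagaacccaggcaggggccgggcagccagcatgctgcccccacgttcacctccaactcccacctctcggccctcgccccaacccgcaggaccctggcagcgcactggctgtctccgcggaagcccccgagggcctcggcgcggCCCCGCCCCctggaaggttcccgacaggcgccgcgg
NDUFA12: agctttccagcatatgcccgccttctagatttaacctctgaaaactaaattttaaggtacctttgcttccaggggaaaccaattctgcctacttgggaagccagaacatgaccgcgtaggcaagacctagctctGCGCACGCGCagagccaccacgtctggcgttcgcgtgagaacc
ATP5H: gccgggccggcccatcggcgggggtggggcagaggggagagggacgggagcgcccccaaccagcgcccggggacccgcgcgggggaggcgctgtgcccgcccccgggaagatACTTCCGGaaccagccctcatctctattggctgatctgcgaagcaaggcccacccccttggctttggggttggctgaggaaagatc
NDUFB4: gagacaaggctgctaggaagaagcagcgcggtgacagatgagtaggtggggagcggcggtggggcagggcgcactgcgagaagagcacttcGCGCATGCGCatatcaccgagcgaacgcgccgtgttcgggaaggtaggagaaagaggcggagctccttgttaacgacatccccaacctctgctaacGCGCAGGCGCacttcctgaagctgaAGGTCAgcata

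Counted from the RefSeq start, not from the end of the printed run, the matches end 88 bases before it in NDUFA10. They end 107 bases before it in NDUFA12, 95 in ATP5H and 33, 54 and 150 in NDUFB4. Over windows from 250 bases before to 50 after the start, 62 of 76 nuclear subunits had a RefSeq promoter, against 27305 genes in all. NRF1 (GCGC and TGCGC with 1 base between) matched 24.2% of the subunits and 6.28% of all genes, ETS (CCGGAAGT) 14.5% and 4.44%, YY1 (AAGATGGC) 17.7% and 3.03%, and SP1 (GGGGCGGGG) 14.5% and 16%, on either strand. The half-site AGGTCA matched 22.6% and 13.9%; the direct repeat of this half-site with 4 bases between, which contains it, matched 0 of the 62 and 0.0183% of all genes. NRF1 matches stood in 4 of 18 subunits that rose with T3 in TRB cells, 2 of 5 that fell and 9 of 38 that passed no test. These are letter matches only, and factor binding was not measured.

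Relative to length, the mitochondrial messages other than MT-ND6 were the most abundant members. Per kilobase of message, mean levels over the 12 libraries ran from 3026 (MT-CO1) to 4381 CPM per kb (MT-CO2) in mitochondrial complex IV and stood at 2102 for MT-CYB. Mitochondrial complex I ran from 86.3 for MT-ND6, the subunit gene on the other strand of the mitochondrial DNA, to 4142 CPM per kb for MT-ND4, and complex V from 533 (MT-ATP8) to 1674 (MT-ATP6). Nuclear subunits ran from 0.764 (NDUFA7) to 467 CPM per kb (NDUFS5) in complex I, with a median of 45.8. In the annotation 33.5% of the exonic bases of NDUFA7 are shared with other genes, RPS28 among them, so its level is uncertain. In complex II they ran from 48.9 (SDHB) to 199 (SDHC), in III from 23.0 (UQCRB) to 325 (UQCRH), in IV from 31.8 (COX7B) to 321 (COX6B1) and in V from 36.6 (ATP5E) to 306 (ATP5H) CPM per kb. Lengths are medians of annotated coding transcripts, so these levels are approximate.

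Isoforms of complex IV known from muscle, testis, lung or hypoxic cells were nearly silent. COX4I2, COX6A2 and COX7A1 had no count in any library, and COX6B2, COX7B2, COX8C and NDUFA4L2 had 1, 2, 5 and 44 counts over all 12. No count in 110638513 allows up to 0.0271 CPM. With NDUFA7 at 47 counts and ATP5L2 and the readthrough or copy genes ATP5J2-PTCD1, ATP5J2LP and NDUFC2-KCTD14 at 29, 12, 0 and 0, these were the 12 members under the minimum count, which left 99 for the tests. COX7A2L, which takes part in joining complexes III and IV, and NDUFA4, a complex IV subunit with a complex I name, were tested and were not called in the T3 comparisons.

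T3 was first compared with vehicle in the TRB pool, where the receptor was added. Of 99 members tested, 26 rose and 7 fell (edgeR quasi-likelihood fit, adjusted p below 0.05 by Benjamini and Hochberg over 14549 genes). In the same fit 22.4% of all genes rose and 21.9% fell, 44.4% together, so the members' share that rose (26.3%) was near the background and their share that fell (7.07%) was below it. The members' median log2 fold change was 0.12, against -0.0017 for all genes. Every T3 library lay above every vehicle library for 42 of 99 members, against 26.1% of all genes. These were 31 of 86 nuclear and 11 of 13 mitochondrial members. Mitochondrial members other than MT-ND6 largely rose and fell together from library to library, so those 11 are not separate results. For 9 members, all nuclear, every T3 library lay below, against 25.8% of all genes. The changes of nuclear members were small: called ones ran from -0.29 to 0.60 on the log2 scale. Counts depended on depth: with every library thinned to the lowest total, 15 members rose and 5 fell, and 19 of the 33 calls were kept. Calls over all genes dropped as well, to 1860 higher and 1807 lower of 13159, from 3264 and 3192 of 14549. Markers of other cell types summed to 25.2 to 26.3 CPM in TRB vehicle and 32.8 to 34.6 in TRB T3 libraries, over 12 genes, with PGR, COL1A2 and DCN among those at 0, and the 3 that were tested (ESR1, COL1A1 and PECAM1) all rose. The 7 markers of the line summed to 6256 to 6278 CPM with vehicle and 5089 to 5291 CPM with T3. The part of either list in the members' results was not tested. In bulk libraries fewer cells of a type and less RNA per cell cannot be told apart.

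**Figure D1:**
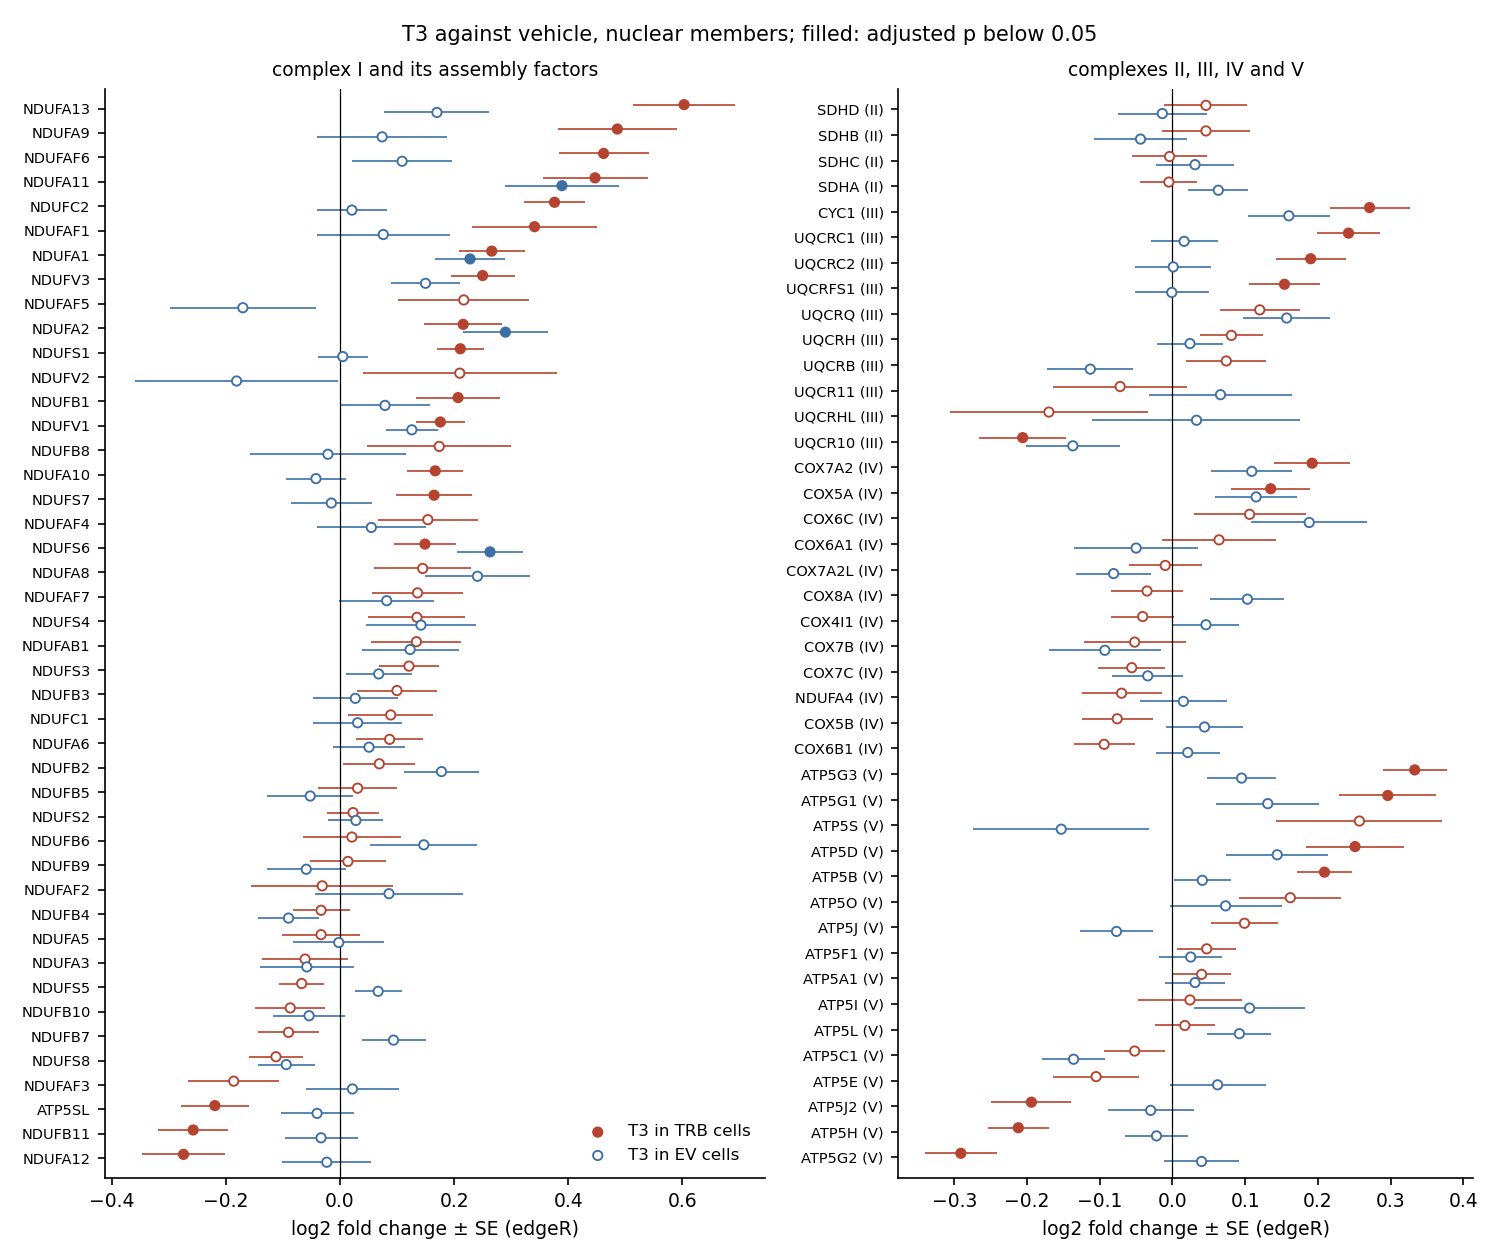
Log2 fold change with its standard error for each nuclear member tested, T3 against vehicle in TRB cells (red) and in EV cells (blue), by complex; filled points passed the test at an adjusted p below 0.05. Filled red points lie between -0.29 and 0.60, and the 4 filled blue points are all in complex I.

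Complex I holds the most nuclear members, 36 of its subunits and 8 assembly genes among the 86 tested. Of these subunits 13 rose and 2 fell (36.1% and 5.56%), against 22.4% and 21.9% of all genes. Those shares, 44.4% together, also stand beside the counts of the other nuclear complexes below. Rising were 3 of 7 core and 10 of 29 accessory subunits. The median log2 fold changes of core and accessory subunits were 0.16 and 0.10. NDUFA13 (chr19:19515736-19529054), an accessory subunit also known as GRIM-19, stood at 16.4, 18.1 and 18.3 CPM in TRB vehicle and 26.7, 28.3 and 25.5 CPM in TRB T3 libraries. All 3 T3 libraries lay well above the vehicle libraries, a log2 fold change of 0.60 ± 0.09 (SE, edgeR adjusted p = 5.4e-08). In the annotation 21.0% of its exonic bases are shared with other genes (YJEFN3 and an unnamed locus), so reads there are uncertain. The same limit holds for others, as 23 members share over 20% of their exonic bases with another gene. NDUFA9 (chr12:4649095-4694317), an accessory subunit beside the ubiquinone site, stood at 14.7, 13.8 and 12 CPM with vehicle and 20.1, 17.7 and 19.0 CPM with T3. Its groups did not overlap either, and the log2 fold change was 0.49 ± 0.10 (edgeR adjusted p = 7.17e-05); that call was lost in thinned counts, as was that of NDUFB11 below.

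Core subunits of complex I also rose. NDUFS1, the large iron-sulfur subunit, stood at 178, 189 and 174 CPM with vehicle and 215, 205 and 206 CPM with T3, a log2 fold change of 0.21 ± 0.04. NDUFV1, which carries the flavin that receives electrons from NADH, rose by 0.18 ± 0.04, and NDUFS7 by 0.16 ± 0.07, a call that several other settings did not give. Of the exonic bases of NDUFS7, 49.1% are shared with other loci. The 2 complex I subunits that fell were both accessory. NDUFA12 (chr12:94897055-95003770), whose promoter with the NRF1 match is printed above, stood at 41.3, 40.8 and 35.5 CPM with vehicle and 33.9, 32.4 and 31.1 CPM with T3. Its T3 libraries all lay below its vehicle libraries, a log2 fold change of -0.27 ± 0.07 (edgeR adjusted p = 0.00119). NDUFB11 had a log2 fold change of -0.26 ± 0.06; 44.9% of its exonic bases are shared with RBM10.

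NDUFC2 (chr11:78068304-78080219), a membrane arm subunit, also rose. Its levels were 70.1, 75.8 and 68.0 CPM in TRB vehicle and 91.7, 93.2 and 93.6 CPM in TRB T3 libraries, a log2 fold change of 0.38 ± 0.05 (edgeR adjusted p = 1.63e-08). EV libraries stood between 59.9 and 72.2 CPM with either treatment. In the annotation 18.1% of its exonic bases are shared with THRSP, a gene known to respond to thyroid hormone, and the readthrough gene NDUFC2-KCTD14 together. The part of THRSP reads in the rise of NDUFC2 was not tested. Among the 8 assembly genes of complex I, NDUFAF6 rose by 0.46 ± 0.08 and NDUFAF1 by 0.34 ± 0.11, and ATP5SL, an assembly factor despite its name, fell by 0.22 ± 0.06 on the log2 scale.

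Complex II did not move measurably. None of its 4 genes was called, none had an unadjusted p below 0.05, and DESeq2 called 0. SDHA (chr5:218241-256700), the flavoprotein that oxidises succinate, stood at 240, 224 and 231 CPM with vehicle and 228, 243 and 222 CPM with T3, with overlapping groups. Its log2 fold change was -0.005 ± 0.039 in TRB cells and 0.063 ± 0.041 in EV cells; SDHA has pseudogene copies that could share its reads. SDHB, the iron-sulfur subunit, had 0.05 ± 0.06 in TRB cells, and the membrane anchors SDHC and SDHD had -0.004 ± 0.051 and 0.05 ± 0.06. The smallest called change among nuclear members of the other complexes was 0.14 (COX5A).

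In complex III 4 of 9 subunits rose (44.4%) and 1 fell (11.1%), against 22.4% and 21.9% of all genes. CYC1 (chr8:144095027-144097525), the cytochrome c1 subunit, stood at 66.5, 59.1 and 60.3 CPM with vehicle and 75.7, 73.6 and 74.8 CPM with T3, a log2 fold change of 0.27 ± 0.06 (edgeR adjusted p = 3.39e-05). EV libraries stood at 69.6, 79.8 and 72.4 CPM with vehicle and 83.1, 84.4 and 81.4 CPM with T3, and CYC1 was lower in TRB than in EV cells with T3 as well (-0.15 ± 0.05, edgeR adjusted p = 0.0106). UQCRC1 (chr3:48599002-48610976), a core protein of the matrix side, stood at 139, 141 and 135 CPM with vehicle and 166, 167 and 158 CPM with T3. It rose by 0.24 ± 0.04, and its partner UQCRC2 and the Rieske iron-sulfur protein UQCRFS1 rose by 0.19 ± 0.05 and 0.15 ± 0.05; both calls were lost in thinned counts, and that of UQCRFS1 also without TRB vehicle replicate 3. UQCR10, a small subunit, fell by 0.21 ± 0.06 on the log2 scale, but in thinned counts its log2 fold change was -0.01, and the call was also lost without TRB T3 replicate 2.

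In complex IV 2 of 11 nuclear subunits rose (18.2%) and none fell, against 22.4% and 21.9% of all genes, and the median was -0.04. COX7A2, the general isoform of a small subunit, stood at 89.6, 95.3 and 87.0 CPM with vehicle and 110, 103 and 98.5 CPM with T3, a log2 fold change of 0.19 ± 0.05 (edgeR adjusted p = 0.00162), not called in thinned counts. COX5A rose by 0.14 ± 0.05, a call that DESeq2 did not make. With DESeq2 1 complex IV subunit rose, and in thinned counts none did.

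Complex V changed in both directions within 1 gene family. The genes ATP5G1, ATP5G2 and ATP5G3 (now ATP5MC1, ATP5MC2 and ATP5MC3) encode the same mature subunit c, the protein of the rotor ring, with different import sequences. ATP5G1 (chr17:48892765-48895871) stood at 36.8, 37.0 and 35.4 CPM with vehicle and 44.1, 44.7 and 45.3 CPM with T3, and ATP5G3 (chr2:175176258-175184607) at 123, 123 and 118 CPM with vehicle and 151, 154 and 154 CPM with T3. ATP5G2 (chr12:53632726-53677408) went the other way, from 91.5, 91.9 and 99.7 CPM to 77.6, 77.8 and 75.8 CPM. The groups did not overlap for any of the 3, and the log2 fold changes were 0.30 ± 0.07, 0.33 ± 0.04 and -0.29 ± 0.05 (edgeR adjusted p = 0.000186, 1.24e-09 and 1.01e-06). In EV cells they were 0.13 ± 0.07, 0.10 ± 0.05 and 0.04 ± 0.05, and none was called.

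Across complex V 4 of 15 subunits rose and 3 fell. The others that rose were ATP5B, the catalytic beta subunit, by 0.21 ± 0.04, and ATP5D, the delta subunit of the central stalk, by 0.25 ± 0.07. ATP5H (chr17:75038863-75046985), subunit d of the peripheral stalk, whose promoter with the ETS match is printed above, stood at 187, 182 and 182 CPM with vehicle and 160, 163 and 153 CPM with T3. It fell by 0.21 ± 0.04 on the log2 scale (edgeR adjusted p = 2.26e-05), and ATP5J2, a membrane subunit, by 0.19 ± 0.06, a call lost without TRB vehicle replicate 1.

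**Figure D2:**
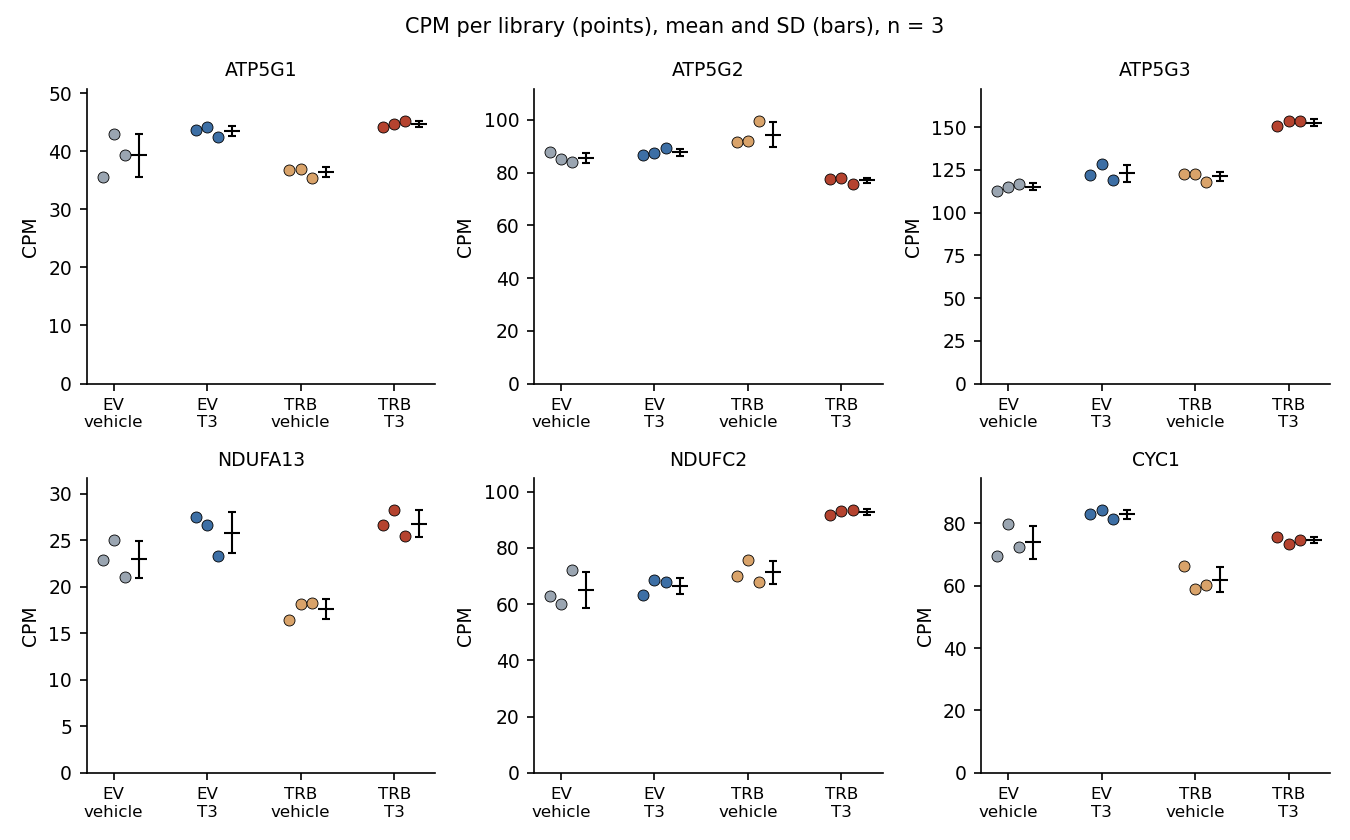
CPM in each library for 6 nuclear members, with the group mean as a line and the standard deviation as a bar. The axis of each panel is linear. In TRB cells the T3 libraries of ATP5G1, ATP5G3, NDUFA13, NDUFC2 and CYC1 lie above the vehicle libraries, and those of ATP5G2 lie below, at 75.8 to 77.8 against 91.5 to 99.7 CPM.

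Summed over subunits, the nuclear complexes moved by a few percent. The ratio of T3 to vehicle means in TRB cells was 1.061 for complex I, 1.006 for II, 1.090 for III, 0.989 for IV and 1.040 for V. All 76 nuclear subunits together stood at 7196, 7160 and 6799 CPM with vehicle and 7412, 7423 and 7203 CPM with T3, a ratio of 1.042 with groups that did not overlap. On library totals without the mitochondrial genes the ratio was 1.020 and the groups overlapped. In EV cells the ratio was 1.026.

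Mitochondrial messages were higher with T3 in TRB cells, but apart from MT-ND6 none passed the test. The 13 genes together stood at 20980, 24290 and 25980 CPM in TRB vehicle and 31440, 29020 and 31500 CPM in TRB T3 libraries, a ratio of 1.291 with no overlap. In EV cells they stood at 27770, 20740 and 24250 CPM with vehicle and 31530, 22260 and 22060 CPM with T3, a ratio of 1.042, and the groups overlapped. Relative to the nuclear subunits of the same library, they were 2.92, 3.39 and 3.82 times as abundant in TRB vehicle and 4.24, 3.91 and 4.37 times in TRB T3 libraries; EV libraries ran from 2.94 to 4.57. EV T3 replicate 1 was the high library of its group, and without it the EV ratio was 0.914.

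**Figure D3:**
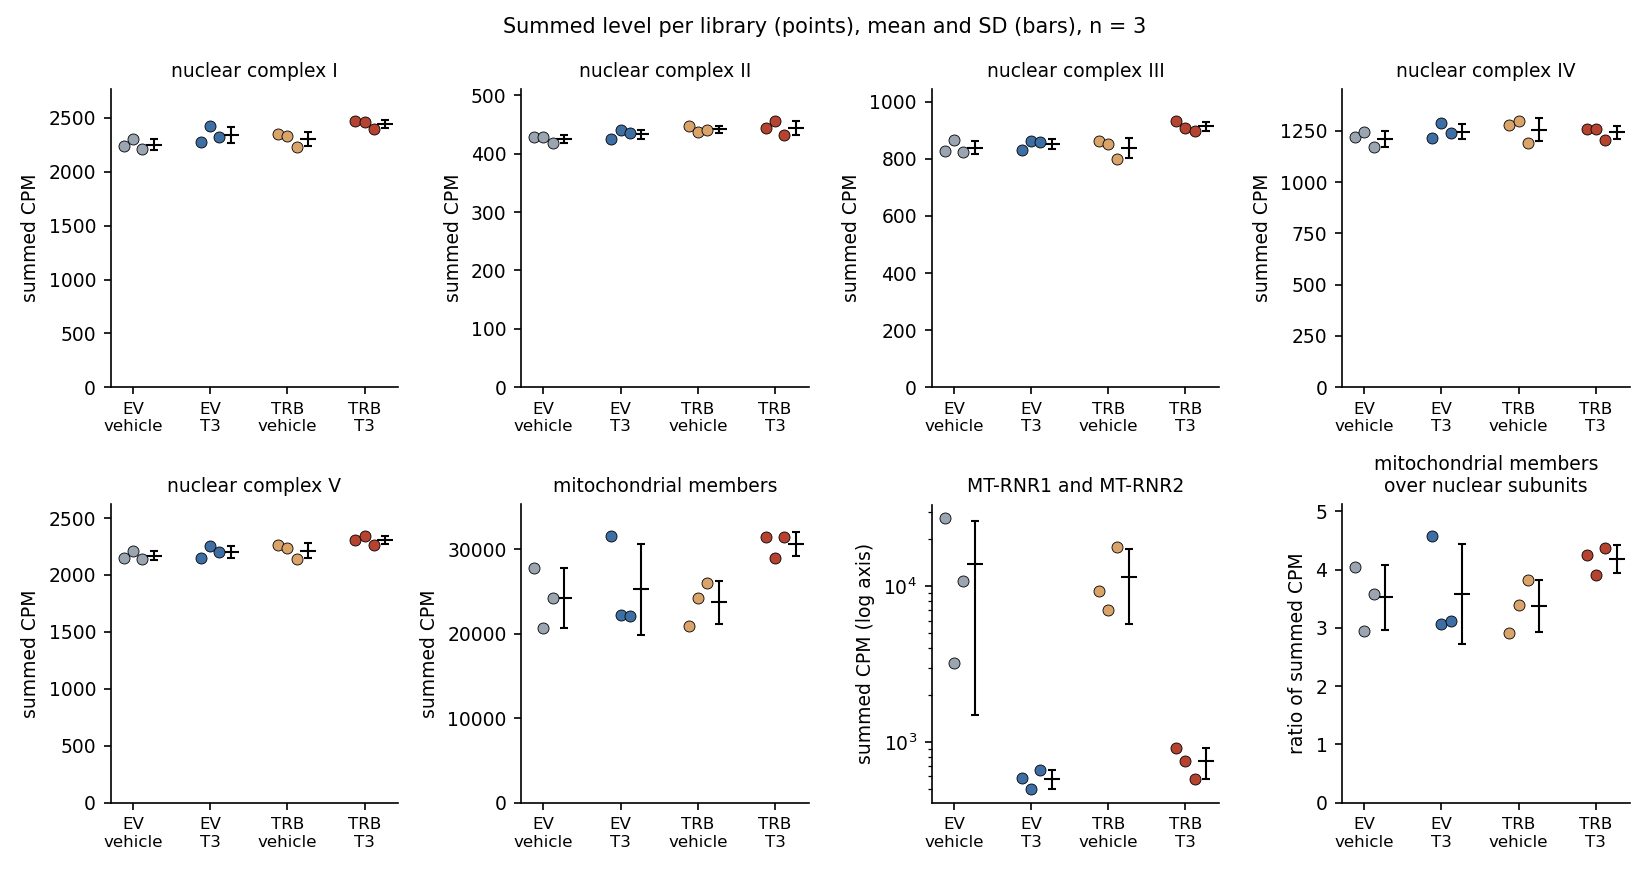
Summed CPM in each library for the nuclear subunits of complexes I to V, the mitochondrial members and the 2 mitochondrial ribosomal RNAs (log axis). The last panel gives the ratio of mitochondrial members to nuclear subunits. Lines are group means and bars are standard deviations. The mitochondrial members reach 29020 to 31500 CPM in TRB T3 against 20980 to 25980 in TRB vehicle libraries, and the ribosomal RNAs are low in the T3 libraries of both pools.

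The 12 messages other than MT-ND6 had log2 fold changes from 0.20 (MT-ND1) to 0.44 (MT-ND5) with T3 in TRB cells. MT-CO1, the catalytic subunit of complex IV, stood at 3609, 4313 and 4725 CPM with vehicle and 5666, 5069 and 5744 CPM with T3, groups that did not overlap, with 0.38 ± 0.17 (edgeR adjusted p = 0.112). MT-ND4, a proton-pumping subunit of complex I, stood at 4518, 5205 and 5467 CPM with vehicle and 6787, 6333 and 6900 CPM with T3, with 0.40 ± 0.16 (edgeR adjusted p = 0.0776). MT-CYB, the only complex III gene there, had 0.34 ± 0.16, and MT-ATP6, the proton channel subunit of complex V, 0.42 ± 0.16. MT-ND2, MT-ND3, MT-ND4L, MT-CO2, MT-CO3 and MT-ATP8 had 0.36, 0.29, 0.37, 0.29, 0.35 and 0.26.

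The number of these 12 called rests on how the spread was estimated. None was called by edgeR, with 5 at an unadjusted p below 0.05; DESeq2 called 3, and a fit of the TRB groups alone 10. Without EV T3 replicate 1 the fit called 7 of the 12, while leaving out any other single library gave 0. Their median log2 fold change stayed between 0.28 and 0.42 in the alternatives run. T3 in EV cells gave 0 calls among them in every setting run, with values from -0.12 (MT-ATP8) to 0.16 (MT-ND3), and 0 by DESeq2. The difference between the pools in T3 effect was not called for any of the 12 by edgeR (0 at an unadjusted p below 0.05) or DESeq2. Without EV T3 replicate 1 it was called for MT-ND2, at 0.53, and 10 of the 12 had an unadjusted p below 0.05.

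MT-ND6 (chrM:14149-14673, minus strand), the 1 subunit read from the opposite strand, rose with T3. It stood at 9.33, 6.83 and 22.0 CPM in TRB vehicle and 60.7, 78.0 and 117 CPM in TRB T3 libraries, and at 17.3, 21.8 and 14.9 CPM in EV vehicle and 88.2, 67.7 and 39.9 CPM in EV T3 libraries. In both pools each T3 library was above each vehicle library. The log2 fold change was 2.79 ± 0.51 in TRB cells (edgeR adjusted p = 0.00184) and 1.85 ± 0.53 in EV cells, where the test was not passed (edgeR adjusted p = 0.107). In EV cells DESeq2 called it (adjusted p = 0.00544), and over the alternatives the adjusted p there ran from 0.00544 to 0.44. The difference between the pools was 0.93 ± 0.83 (edgeR adjusted p = 0.502).

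Other mitochondrial RNAs were set beside it by strand, a grouping made after the values were seen. Only 3 of 14 transfer RNA genes on the plus strand and 3 of 8 on the minus strand passed the minimum count. Of these, MT-TQ and MT-TP on the minus strand rose by 2.44 and 1.03 in TRB cells. On the plus strand MT-TI, MT-TT and MT-TW rose by 0.64, 0.53 and 1.29. MT-TQ had 69 counts over all 12 libraries. MT-TE, the neighbour of MT-ND6 on its strand, also rose, from 3 counts in the TRB vehicle libraries. Genes this low can pass the minimum through the deeper T3 libraries alone, so how many of the tested ones rose is not read as a result. The ribosomal RNAs MT-RNR1 and MT-RNR2 fell, with log2 fold changes of -4.60 and -3.75 in TRB cells and -5.66 and -4.29 in EV cells. Together they stood at 9293, 7053 and 17960 CPM in TRB vehicle against 918, 749 and 580 CPM in TRB T3 libraries. In EV libraries they stood at 27350, 3232 and 10860 CPM with vehicle and 587, 497 and 662 CPM with T3. This drop and the greater depth went with T3 in both pools, and their part in the mitochondrial results was not tested. The strand setting of the counting was not given, so reads from opposite strands at a locus cannot be told apart.

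**Figure D4:**
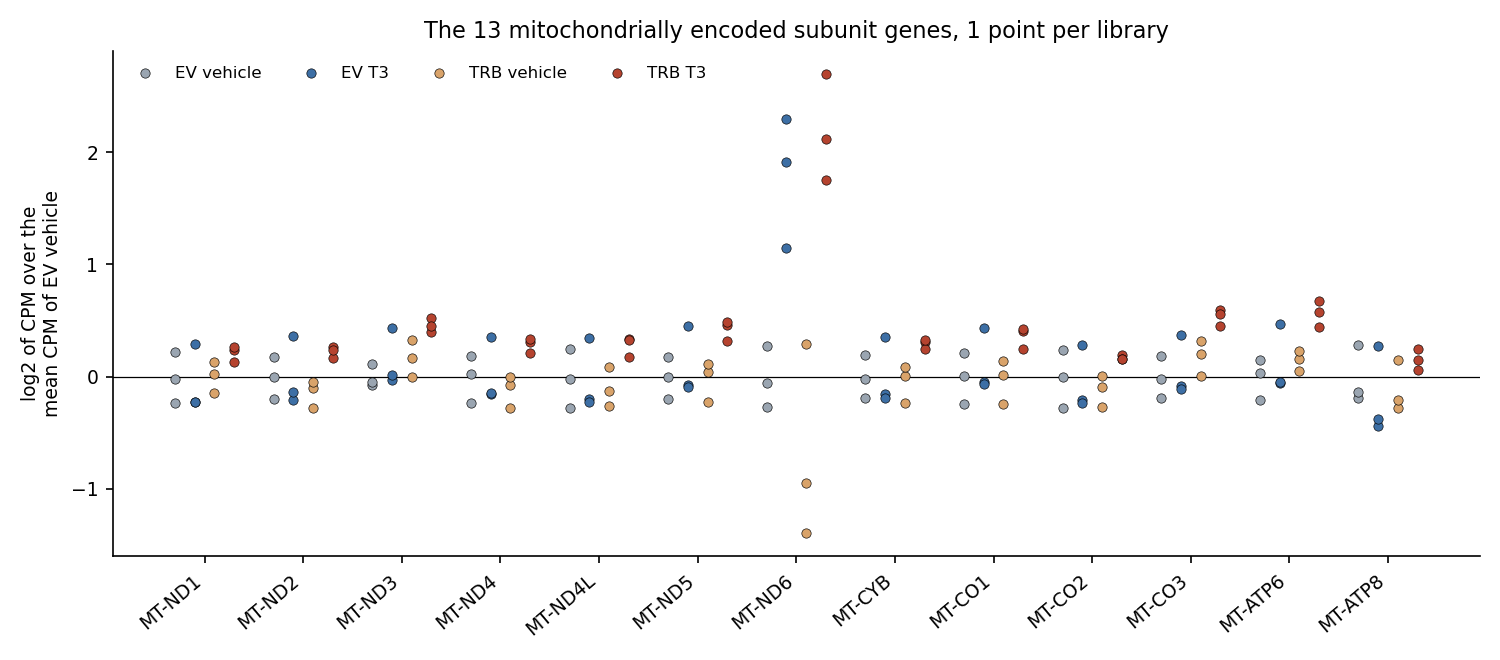
CPM of each mitochondrial protein gene in each library, as the log2 ratio to its mean in EV vehicle libraries. MT-ND6 lies far from the other 12 genes in the T3 libraries of both pools, and EV T3 replicate 1 lies above the other EV T3 libraries.

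With the empty vector, T3 changed few members. Of the 99 tested 4 rose and none fell, against 2.84% and 1.70% of all genes, 4.54% together, and the median was 0.03; 11 members had an EV T3 group wholly above vehicle and 3 a group wholly below it, against 10.4% and 10.2% of all genes. All 4 are accessory subunits of complex I. NDUFA11 (chr19:5891276-5904006), a membrane arm subunit, stood at 15.4, 18.5 and 18.4 CPM with vehicle and 24.9, 24.4 and 20.5 CPM with T3, with 0.39 ± 0.10 (edgeR adjusted p = 0.0106). NDUFA2 and NDUFS6 rose by 0.29 ± 0.07 and 0.26 ± 0.06 with groups that did not overlap, and NDUFA1 by 0.23 ± 0.06 with groups that did. Of the exonic bases of NDUFA1, 44.5% are shared with RNF113A. In TRB cells the same 4 genes rose by 0.45, 0.22, 0.15 and 0.27. None of the 4 calls in EV cells was made without EV vehicle replicate 3 or in thinned counts.

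Without T3 the 2 pools differed in 5 members. TRB cells were higher in 3 and lower in 2 of 99, against 7.86% and 7.40% of all genes, 15.3% together. NDUFA5, an accessory complex I subunit, ATP5E, the epsilon subunit of ATP synthase, and COX5B, a complex IV subunit, were higher by 0.34 ± 0.08, 0.29 ± 0.07 and 0.18 ± 0.06. NDUFA13 and CYC1, which T3 raised in TRB cells, were lower in that pool without T3, with log2 fold changes of -0.37 ± 0.11 and -0.26 ± 0.06 (edgeR adjusted p = 0.0079 and 0.00109). In thinned counts 1 of the 5 calls, ATP5E, was kept. Leaving out 1 library lost NDUFA13 (EV vehicle replicate 2), NDUFA5 (TRB vehicle replicate 2), ATP5E (EV vehicle replicate 3) and COX5B (EV vehicle replicate 2 or 3, TRB vehicle replicate 1 or 2). These differences and those of T3 in TRB cells share the TRB vehicle libraries.

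With T3 the pools differed in 30 members. TRB cells were higher in 22 and lower in 8 of 99, against 21.0% and 19.7% of all genes, 40.7% together. The highest were NDUFC2 (0.48 ± 0.05), the MT-CO3 message of complex IV (0.46 ± 0.15, edgeR adjusted p = 0.0396) and the complex I assembly gene NDUFAF5 (0.36 ± 0.11). The lowest were the assembly gene NDUFAF3 (-0.27 ± 0.07), ATP5G2 (-0.19 ± 0.05) and ATP5H (-0.19 ± 0.04). Of the mitochondrial genes other than MT-ND6, MT-CO3 was the only one called by edgeR and DESeq2 called 2; without EV T3 replicate 1 the fit called 10. The MT-CO3 call was lost without each of EV T3 replicates 2 and 3, the 3 TRB T3 libraries, EV vehicle replicate 3 and TRB vehicle replicate 2. NDUFAF5 was lost without EV T3 replicate 3 or TRB T3 replicate 1, and NDUFAF3 without EV T3 replicate 2.

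The T3 effect itself differed between the pools for 12 members, 10 with a higher and 2 with a lower value in TRB cells, against 12.3% and 11.6% of all genes, 23.9% together. This test shares the EV and TRB libraries with the comparisons above. The smallest p-values belonged to ATP5G2 (-0.33 ± 0.07, edgeR adjusted p = 0.000205), NDUFC2 (0.36 ± 0.08, adjusted p = 0.000474), ATP5G3 (0.24 ± 0.06), UQCRC1 (0.23 ± 0.06) and NDUFS1 (0.21 ± 0.06). None of complexes II and IV and none of the mitochondrial genes was among the 12. NDUFC2 kept its call in each alternative run.

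The nuclear regulators known to drive respiratory genes moved in both directions. Of 14 tested, 5 rose and 5 fell with T3 in TRB cells (35.7% each), against 22.4% and 21.9% of all genes. For T3 in TRB cells those are also the shares to read the lists below against. PPARGC1A, the coactivator PGC-1 alpha, stood at 0.263, 0.112 and 0 CPM in TRB vehicle, 3 counts in all, and at 5.74, 5.12 and 6.46 CPM in TRB T3 libraries, and had no count in any EV library. PPARGC1A thus passed the minimum count only through the TRB T3 libraries, and its place among the 14 tested was set by that filter. Its relative PPARGC1B rose by 1.33 and the orphan receptor ESRRA, a partner of both, by 0.75 in TRB cells; ESRRA also rose in EV cells, by 0.35. NRF1, the respiratory factor whose motif was searched above, had 0.08 and was not called, and GABPA, the ETS factor, fell by 0.24 on the log2 scale.

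Genes that read and process mitochondrial DNA rose in part: 11 of 25 rose (44.0%) and none fell in TRB cells. In EV cells 1 rose (4.0%), against 2.84% of all genes. Without T3 the same list of 25 had 5 genes lower and none higher in TRB than in EV cells. Of all genes 7.40% were lower and 7.86% higher in that comparison. With T3 the list had 3 genes higher and none lower in TRB than in EV cells. Both were smaller shares than among all genes, of which 21.0% were higher and 19.7% lower. POLRMT, the mitochondrial RNA polymerase, rose by 0.36, TBRG4 and FASTKD2, which bind mitochondrial messages, by 0.42 and 0.39, and TFAM, which packages the DNA, had -0.05 and was not called. Of 35 further assembly factors 5 rose (14.3%) and 1, the ATP synthase factor ATPAF1, fell, by 0.48 on the log2 scale; COA7, a complex IV factor, rose by 0.18. Of 16 electron carriers and entry points 5 rose (31.2%) and 1 fell, with cytochrome c (CYCS) at 0.30 and the sulfide oxidising enzyme SQRDL at -0.60. Of 18 genes of the tricarboxylic acid cycle and pyruvate dehydrogenase 5 rose (27.8%), PDHA1 by 0.51 and IDH3A by 0.50 among them, and 4 fell (22.2%), shares near those of all genes. Of 8 uncoupling and nucleotide exchange genes 4 rose; UCP2, a mitochondrial carrier of the uncoupling protein family, rose by 1.56 in TRB and by 0.36 in EV cells, and the carrier SLC25A5 by 0.20 in TRB cells.

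**Figure D5:**
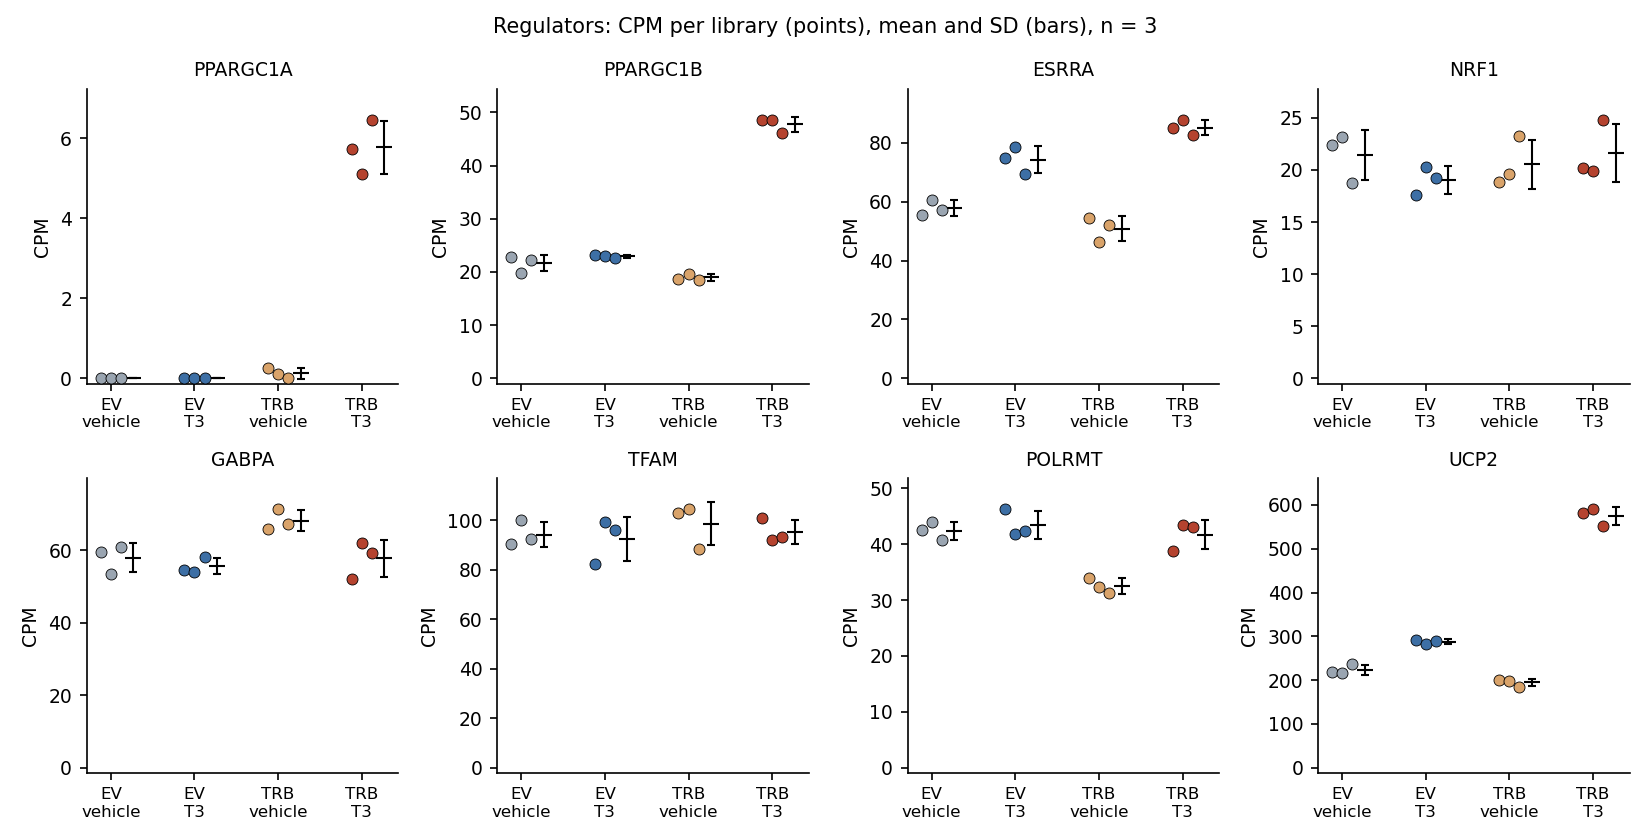
CPM in each library for 8 regulators and mitochondrial genes, with group means as lines, standard deviations as bars and a linear axis in each panel. PPARGC1A is near 0 outside the TRB T3 libraries, where it stands at 5.12 to 6.46 CPM, and TFAM and NRF1 were not called with T3 in either pool.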

How the data were processed

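RNA of 12 MDA-MB-468 libraries was sequenced after preparation with the NEBNext Ultra II RNA kit, per the labels' protocols. The submitters' processing notes name CASAVA 1.7, STAR 2.7, HTSeq 0.10, DESeq2 and build hg38; strand settings are not given in the sources used here. What the authors deposited are raw counts for each gene symbol, per the file contents; lines naming no gene (31.87% to 39.24%) were left out. A deposited table of rounded normalized values, treated as a score made by the authors, served only to check the columns.

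Counts were tested with edgeR 4.0.16 (limma 3.58.1, R 4.3.3): filterByExpr (10 counts, 15 in total), TMM, robust quasi-likelihood, 4 group means fitted together (8 residual degrees of freedom), p adjusted by Benjamini-Hochberg over 14549 genes. CPM are TMM-scaled; a standard error is the size of the log2 fold change divided by the square root of F. Steps were tested on simulated data. Limits from no count use 3 counts and cover counting error only. Coordinates are GENCODE v29 (GRCh38), by symbol or older symbol, for 110 of 111 members. Alternatives were DESeq2 1.42.0, no filter, other scalings, the compared groups alone, a replicate block, each library left out, thinned counts and GC content removed.

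Members, gene lists and motifs were chosen with earlier results of these data known. Named genes were the mitochondrial members, complex II, the extremes among called members of each complex and comparison, the 5 smallest p for the difference, set isoforms and regulators, and the 2 smallest p of each list; others named were chosen after their values were seen.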

Additional observations from a re-analysis of the deposited data

Results flagged for a closer look

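The T3 effect differed between the pools for 12 members (an interaction in the edgeR fit, adjusted p below 0.05), and each is given as the log2 effect in TRB cells minus that in EV cells. In complex I these were NDUFA13 (0.432), NDUFA9 (0.412), NDUFC2 (0.355), NDUFA10 (0.208), NDUFS1 (0.206) and the assembly gene NDUFAF6 (0.352). In complex III they were UQCRC1 (0.226) and UQCRC2 (0.19), and in complex V ATP5G3 (0.238), ATP5B (0.168), ATP5H (-0.19) and ATP5G2 (-0.331). In EV cells none of the 12 passed the test for T3. NDUFC2 kept its difference in each alternative run, and ATP5G2, ATP5G3, NDUFS1 and UQCRC1 lost it only in thinned counts. NDUFA13 lost it without EV vehicle replicate 2, alone or together with replicate 1, and in thinned counts, and ATP5H without EV vehicle replicate 3 or EV T3 replicate 2. NDUFA9, UQCRC2, NDUFA10, NDUFAF6 and ATP5B lost it in several alternatives.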

How the results depend on the processing

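No gene named here that was called changed sign in the alternatives run, but medians near 0 did: over the 12 mitochondrial messages other than MT-ND6 the median for T3 in EV went from 0.03 to -0.16 without EV T3 replicate 1 and to -0.07 without EV vehicle replicate 2, and that for TRB against EV without T3 from -0.03 to 0.07 without EV vehicle replicate 1 and to 0.06 without TRB vehicle replicate 1. With counts thinned to equal depth the members higher fell in number from 26 to 15 for T3 in TRB, from 4 to 0 for T3 in EV, from 3 to 1 for TRB against EV without T3, from 22 to 9 with T3 and from 10 to 1 for the difference of T3 effects, and the members lower from 2 to 0 without T3 and from 8 to 2 with T3. Over all genes, thinning took the higher calls from 3264 to 1860, 413 to 141, 1143 to 393, 3056 to 1621 and 1783 to 902, in that order. For TRB against EV the lower calls went from 1077 to 422 without T3 and from 2860 to 1533 with T3. The thinned fit tested 13159 genes, the main fit 14549. With the GC trend removed the members lower numbered 13 for T3 in TRB, 1 for T3 in EV and 5 for the difference. Over all genes these were 3314, 295 and 1835 of 12866, against 3192, 247 and 1687 of 14549. With only the groups compared 5 were higher in TRB without T3, beside 1265 of 13499 over all genes. The difference had 6 higher with DESeq2 and 5 with no filter, beside 1352 of 14549 and 1481 of 30487 over all genes. With EV vehicle replicates 1 and 2 both left out, which was chosen after seeing the data, it had 4 higher and 4 lower, and TRB against EV without T3 had 0 lower.

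Leaving out each library in turn gave 22 to 33 higher and 7 to 10 lower for T3 in TRB, 0 to 8 and 0 to 1 for T3 in EV, 1 to 6 and 1 to 2 for TRB against EV without T3, 13 to 26 and 5 to 10 with T3, and 5 to 11 and 1 to 5 for the difference. The cause of these shifts was not tested. The replicate numbers did not pair the libraries: 0 of 18 pairs with the same number had a correlation over 0.1, and 3 of 12 libraries correlated best with their own number. The replicate block kept 33 of 33 calls for T3 in TRB. Depth limits the low members, of which 12 did not reach the minimum count and were not tested.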
